A study of Mus musculus with 18 samples.

Results

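Amino acids enter mouse embryonic stem cells (mESCs) through membrane proteins of the solute carrier (SLC) families. The transcripts of 10 such transporter genes, chosen by name from the 24369 genes of the deposited expression table, were followed through the first days of differentiation and in mESCs that lack a brake on mTORC1. The genes are *Slc7a1*, *Slc7a3*, *Slc7a5*, *Slc7a11*, *Slc3a2*, *Slc38a1*, *Slc38a2*, *Slc1a4*, *Slc1a5* and *Slc6a9*. All 10 were detected in every library, and all 10 passed the filter on low counts in both experiments.

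The study asked which genes hold mESCs in, or release them from, the naive pluripotent state. All cells derive from the E14 line and carry a destabilized GFP reporter in the *Rex1* locus (the gene listed as *Zfp42*) together with Cas9 at Rosa26 under the EF1α promoter, a genotype the labels call Rex1GFPd2-Cas9. One experiment measured wild-type cells of this genotype on days 0, 1, 2 and 3 of differentiation, with 3 libraries per day. The other measured sorted GFP+ cells, with 2 libraries each for wild-type, *Nprl2*-/- and *Tsc2*-/- cells, grown with serum, LIF and feeder fibroblasts. Each knockout (KO) was made by deleting an exon with a pair of gRNAs and picking clones, so a genotype may stand for a single clone. The labels do not say whether libraries of a group come from separate cultures or clones, so p values measure the spread between these libraries, which may be technical. How the time-course cells were grown before day 0 and sorted, and how their libraries were prepared, is not stated. The methods induce differentiation in NDiff227 medium without LIF and without the inhibitors of MEK and Gsk3. Changes after day 0 may thus also come from a change of medium, which cannot be told apart from differentiation. The experiments were analysed separately, and levels were not compared between them.

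The 10 genes cover several routes of amino acid uptake, and other carriers are expressed in these cells too. *Slc7a1* (Cat1) and *Slc7a3* (Cat3) carry arginine and lysine. *Slc7a5* (Lat1) exchanges intracellular glutamine for leucine and other large neutral amino acids, and *Slc7a11* (xCT) exchanges glutamate for cystine. Both of these need the heavy chain encoded by *Slc3a2* (4F2hc, CD98) to reach the cell surface. *Slc38a1* (Snat1) and *Slc38a2* (Snat2) take up glutamine, alanine and other small neutral amino acids with sodium. *Slc1a4* (Asct1) and *Slc1a5* (Asct2) exchange small neutral amino acids such as serine, and *Slc6a9* (GlyT1) imports glycine. When amino acids are scarce, the Gator1 complex, of which *Nprl2* is a subunit, keeps the Rag GTPases from recruiting mTORC1 to the lysosome. *Tsc2* inhibits mTORC1 through another small GTPase, Rheb. Several of the 10 genes are textbook targets of the transcription factor Atf4, which is translated when amino acids are scarce and also when mTORC1 is active.

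The total of estimated counts was between 12503005 and 15305054 in the time-course libraries and between 8610357 and 13780861 in the GFP+ libraries. At these totals 3 counts, the most that a count of 0 allows, were worth 0.196 to 0.348 CPM, the unit in which each library's counts are divided by its total, for counting error only. *Nprl2* was at 8.09 and 8.65 TPM (a level scaled for transcript length and library total) in *Nprl2* KO against 16.1 and 17.0 TPM in wild-type. *Tsc2* was at 18.8 and 20.3 TPM in *Tsc2* KO against 45.0 and 44.9 TPM in wild-type, and both targeted genes passed edgeR's quasi-likelihood test in their own KO. The summed level of 6 naive pluripotency markers was between 2354 and 2498 TPM on day 0 and between 118 and 187 TPM on day 3. That of the general factors *Pou5f1* and *Sox2*, which were set apart after the values were seen, was between 2265 and 2359 TPM on day 0 and between 1157 and 1423 TPM on day 3, and that of 5 formative markers went from between 111 and 135 TPM to between 1236 and 1529 TPM. In GFP+ cells the naive sum was between 1150.3 and 1184 TPM in wild-type, between 812 and 823 TPM in *Nprl2* KO and between 2107 and 2189.5 TPM in *Tsc2* KO. The formative sum was between 418 and 502 TPM, between 572 and 662 TPM and between 116 and 121 TPM in the same order. The part of these states in the differences between days and genotypes given below was not tested. The sum of 10 feeder fibroblast markers was between 16.4 and 25.01 TPM on day 0 and between 43.4 and 51.8 TPM on day 3, with *Lum* at 0 on both days. In GFP+ cells the feeder sum was 126 and 180 TPM in wild-type, 134 and 139 TPM in *Nprl2* KO, and 50.7 and 164 TPM in *Tsc2* KO. Of its 8 markers tested there, edgeR called none in any genotype comparison (1 had an unadjusted p under 0.05, in *Tsc2* KO against *Nprl2* KO), and DESeq2 and limma called none. Of all genes, 6.43% to 34.2% were called by edgeR in these comparisons. With libraries so far apart in *Tsc2* KO, a difference in these markers could be missed. The sum of 8 primitive endoderm markers was at most 11.4 TPM in all libraries. In bulk RNA, fewer cells that express a gene and less RNA of it per cell cannot be told apart.

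The loci of the 10 genes lie on 9 chromosomes of GRCm38.p6. *Slc38a1* (chr15:96571418-96643438) and *Slc38a2* (chr15:96687392-96699728) are neighbours on chromosome 15, and *Slc7a3* (chrX:101079146-101090452) lies on the X chromosome. The other genes are *Slc7a11* (chr3:50364936-50499087), *Slc6a9* (chr4:117835258-117869305), *Slc7a1* (chr5:148327410-148399904), *Slc1a5* (chr7:16781334-16798274), *Slc7a5* (chr8:121881146-121907686), *Slc1a4* (chr11:20302180-20332713) and *Slc3a2* (chr19:8706882-8723369).

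Promoters of genes induced by a shortage of amino acids are known for the amino acid response element, whose core TGATGNAA is bound by Atf4 with a partner of the C/EBP family. This core was searched on both strands of the windows that RefSeq (GRCm38.p6) gives from 250 bases before to 50 bases after a start site. There were 9 windows for 6 of the 10 genes, namely *Slc7a1*, *Slc7a11*, *Slc3a2*, *Slc38a2*, *Slc1a4* and *Slc6a9*, and *Slc7a3*, *Slc7a5*, *Slc38a1* and *Slc1a5* had none. The core was found in the windows of *Slc7a11* and *Slc1a4* alone, against 3.97% of all 32851 windows. In both the letters were TGATGCAA or the reverse complement TTGCATCA, a form held by 0.895% of all windows. *Slc7a11* held 2 copies in opposite orientation. At least 2 copies of the core TGATGNAA, on either strand, were found in 23 of the 32851 windows (0.07%). For the narrower form TGATGCAA, taken up after the letters were seen, there were 2 such windows. The sequences are shown because these are the members with the core near a start site, and the capitals mark it. The *Slc7a11* sequence is the 250 bases before a start site (chr3:50443614-50443863, minus strand), with copies that begin 66 and 47 bases before the start. The *Slc1a4* sequence (chr11:20332710-20332793, minus strand) ends 4 bases past the start, and its copy spans the start.
Slc7a11: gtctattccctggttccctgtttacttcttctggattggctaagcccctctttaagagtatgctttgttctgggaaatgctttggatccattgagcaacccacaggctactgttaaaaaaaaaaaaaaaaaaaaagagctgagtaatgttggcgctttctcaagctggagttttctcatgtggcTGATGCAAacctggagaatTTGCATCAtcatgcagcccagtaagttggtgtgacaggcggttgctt
Slc1a4: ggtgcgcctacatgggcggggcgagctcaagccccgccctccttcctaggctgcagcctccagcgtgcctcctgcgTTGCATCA
The second *Slc7a11* copy overlaps the octamer ATGCAAAT, the sequence bound by the factor Oct4, which 1.74% of all windows hold. The octamer and this copy, read as TGATGCAA, both lie on the strand opposite to the letters shown. A match of letters is a description of the sequence and not a binding site, and no binding was measured.

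The transporter genes differed widely in level. On day 0 their mean levels ran from 213 TPM for *Slc7a3* through 203 TPM for *Slc7a5*, 188 TPM for *Slc3a2* and 131 TPM for *Slc38a2* down to 9.08 TPM for *Slc1a4*, 5.19 TPM for *Slc6a9* and 0.730 TPM for *Slc7a11*. The libraries of *Slc7a3* overlapped with those of *Slc7a5*, those of *Slc7a5* with those of *Slc3a2*, and those of *Slc7a1* with those of *Slc38a1*. *Slc38a2* and *Slc1a5* stood clear of both neighbours in the order. By day 3 the order of the 4 highest genes was the same, whereas *Slc7a1* had dropped from rank 6 to rank 9, with libraries that overlapped those of *Slc6a9* at rank 8. On day 1, alone among the 4 days, *Slc38a2* led all 10 genes, and no neighbours in the order overlapped. In GFP+ cells *Slc38a2* also had the highest mean in wild-type, where it overlapped with *Slc7a3*, and in *Nprl2* KO, where it stood clear of it. In *Tsc2* KO it held rank 4 and overlapped with *Slc7a3*.

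In the step from day 0 to day 1, 4 transporter genes rose and 5 fell, while 30.1% of all genes tested rose and 30.8% fell, 60.9% together. *Slc38a2*, *Slc7a3*, *Slc7a11* and *Slc38a1* rose, and *Slc7a1*, *Slc6a9*, *Slc1a5*, *Slc1a4* and *Slc7a5* fell. From day 1 to day 2, 4 rose and 3 fell, against 32.5% and 29.6% of all genes (62.1% together), and from day 2 to day 3, 3 rose and 2 fell, against 15.9% and 15.6% (31.5% together). Over the whole course from day 0 to day 3, 4 rose, 2 fell and 4 did not pass, against 35% of all genes higher and 35.9% lower (70.9% together). The median log2 fold change of the 10 genes was -0.05, 0.09 and 0.08 in the 3 daily steps and 0.04 over all, so that the list as a whole was near the median of all genes tested in each comparison (at most 0.02 from 0). Consecutive steps share the libraries of the day between them. The changes of single genes reached 5.64-fold, and they ran in different directions.

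**Figure D1:**
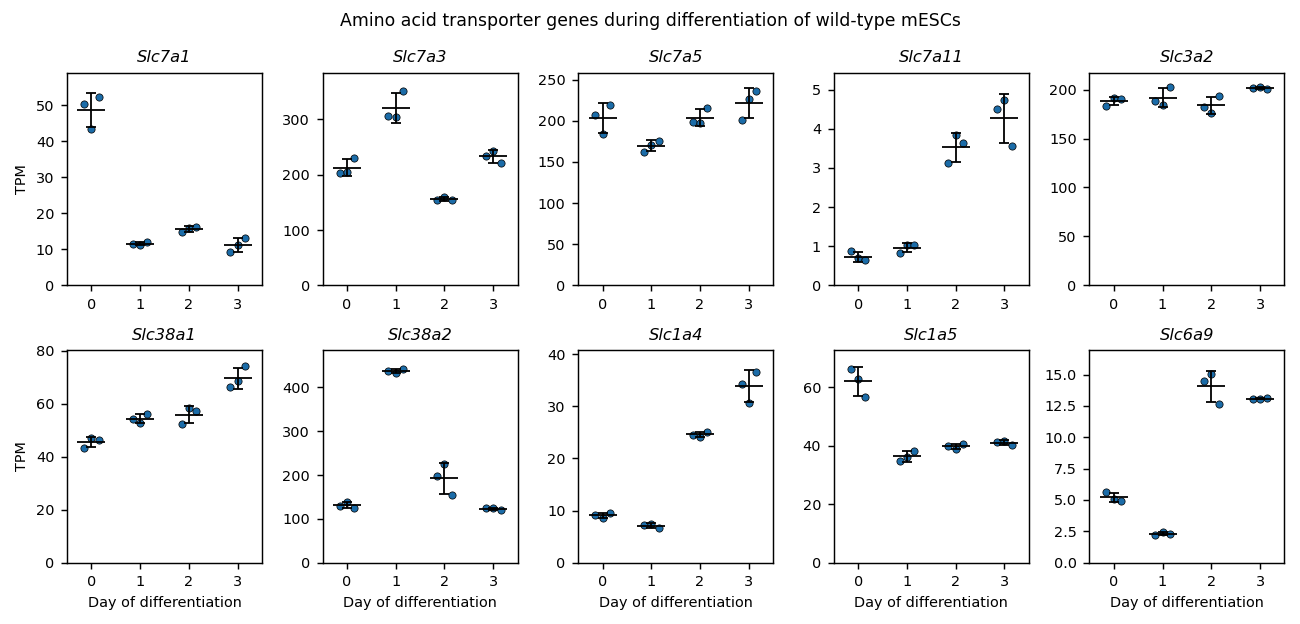
Levels (TPM, linear axes that start at 0 and differ between panels) of the 10 transporter genes on days 0 to 3 of differentiation, with 1 point per library, the mean as a line and the SD as bars (n = 3). *Slc38a2* peaks on day 1, *Slc7a1* drops from day 0 to day 1 and stays low, and *Slc1a4*, *Slc6a9* and *Slc7a11* are highest on days 2 and 3.

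Of the 2 members described above as carriers of arginine and lysine, *Slc7a1* fell on the first day and *Slc7a3* did not. *Slc7a1* was at 50.3, 43.3 and 52.2 TPM on day 0 and at 11.4, 11.2 and 11.98 TPM on day 1. It was at 14.7, 15.9 and 16.2 TPM on day 2 and at 9.36, 11.1 and 13.3 TPM on day 3. All day 0 libraries lay above all later ones. The fall to day 1 was 2.00 on the log2 scale (SE 0.09, edgeR adjusted p = 2.61e-12), a 4.01-fold difference. A small rise to day 2 of 0.32 (SE 0.09, edgeR adjusted p = 0.00737) was followed by a fall of 0.51 on the log2 scale (SE 0.09, edgeR adjusted p = 0.000631). *Slc7a3* was at 203, 205 and 230.1 TPM on day 0, 306, 305 and 352 TPM on day 1, 154, 160.3 and 155 TPM on day 2 and 234, 244 and 222 TPM on day 3. Its libraries did not overlap between consecutive days, while those of days 0 and 3 did. It rose by 0.66 (SE 0.07, edgeR adjusted p = 8.06e-08) to day 1, fell by 1.15 on the log2 scale (SE 0.07, edgeR adjusted p = 6.49e-11) to day 2 and rose again by 0.53 (SE 0.07, edgeR adjusted p = 1.87e-05) to day 3, with a net log2 fold change of 0.05 (SE 0.07, edgeR adjusted p = 0.556). The median log2 fold change of the 541 genes tested on the X chromosome, where *Slc7a3* lies, was 0.13 from day 0 to day 1, against 0.00 for all genes, and its part in the rise of *Slc7a3* was not tested. *Slc7a1* made up 17.4% to 19.9% of the summed TPM of this pair on day 0 and 3.29% to 3.60% on day 1, and 3.85% to 5.64% on day 3.

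The transcripts of *Slc7a5* and *Slc3a2*, whose proteins form a heterodimer, showed small differences between days. *Slc3a2* stayed between 176 and 203 TPM in all 12 libraries, and neither its first step, 0.10 (SE 0.05, edgeR adjusted p = 0.117), nor its net change, 0.01 (SE 0.05, edgeR adjusted p = 0.824), passed the test. A small fall from day 1 to day 2 of 0.18 on the log2 scale (SE 0.05, edgeR adjusted p = 0.00763) did pass. The libraries of these days overlapped (189, 184 and 202 against 182, 176 and 193 TPM). The fall did not pass with upper-quartile normalization (-0.10, edgeR adjusted p = 0.124) or with any limma fit (-0.06, adjusted p = 0.303 to 0.332). *Slc7a5* was at 207, 183 and 219 TPM on day 0 and 162, 171 and 175 TPM on day 1. All day 1 libraries lay below all day 0 libraries. The fall was 0.19 on the log2 scale (SE 0.07, edgeR adjusted p = 0.0185), and it was lost when day 0 library 1 or 3 or day 1 library 1 was left out (adjusted p = 0.0568, 0.104 and 0.0816). *Slc7a5* was at 199, 197 and 216 TPM on day 2 and 201, 226 and 236 TPM on day 3. The day 1 and day 2 libraries did not overlap, and the step of 0.15 (SE 0.07, edgeR adjusted p = 0.0533) did not pass, whereas it did with upper-quartile normalization (0.23, adjusted p = 0.00463), with each limma fit (0.27, adjusted p = 0.0055 to 0.0111), with the 2 days fitted alone (0.16, adjusted p = 0.016) and with the replicate block (adjusted p = 0.0419). It also passed without day 0 library 2 or 3 or day 3 library 1 (adjusted p = 0.0313, 0.0333 and 0.0467). The net log2 fold change of *Slc7a5* was 0.04 (SE 0.07, edgeR adjusted p = 0.635). The ratio of *Slc7a5* to *Slc3a2* in TPM lay between 0.859 and 1.18 over the time course.

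*Slc7a11*, the cystine carrier that shares the *Slc3a2* heavy chain, was the lowest of the 10 genes on every day and rose late. It was at 0.868, 0.687 and 0.636 TPM on day 0, 0.825, 1.03 and 1.02 TPM on day 1, 3.12, 3.83 and 3.63 TPM on day 2 and 4.51, 4.74 and 3.55 TPM on day 3. Every library of days 2 and 3 lay above every library of days 0 and 1. The counts behind these levels ran from 42 on day 0 to 325 on day 3. The step from day 1 to day 2 was 1.76 (SE 0.15, edgeR adjusted p = 1.33e-08). The net rise, 2.47 (SE 0.16, edgeR adjusted p = 5.14e-11), was the largest log2 change of the 10 genes over the 3 days in this fit. Over the alternative fits the net log2 fold change of *Slc7a1* was -2.31 to -2.03. That of *Slc7a11* was 1.60 to 2.60, so this rank depended on the fit. The first step was 0.47 (SE 0.19, edgeR adjusted p = 0.0342), with libraries that overlapped, and it was lost when day 0 library 2 or 3 or day 1 library 2 or 3 was left out (adjusted p = 0.106, 0.104, 0.110 and 0.0881). The summed level of the feeder fibroblast markers was also higher on days 2 (36.0 to 40.5 TPM) and 3 than on day 1 (17.2 to 19.2 TPM). Of the 9 tested, 5 rose and 3 fell over the 3 days, against 35% of all genes higher and 35.9% lower (70.9% together). Their part in the late rises of *Slc7a11*, *Slc1a4* and *Slc6a9* was not tested.

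The genes of the sodium-coupled neutral carriers differed from each other. *Slc38a2* was at 129, 138 and 125 TPM on day 0 and 438, 434 and 441 TPM on day 1. It came back to 197, 226 and 154 TPM on day 2 and 124, 125 and 119.6 TPM on day 3. The day 1 libraries lay far above all others, and the day 2 libraries were the most spread. The rise to day 1 was 1.81 (SE 0.11, edgeR adjusted p = 6.27e-09), a 3.52-fold difference, followed by falls of 1.30 on the log2 scale (SE 0.11, edgeR adjusted p = 2.07e-07) and 0.69 on the log2 scale (SE 0.11, edgeR adjusted p = 0.000398). The net log2 fold change was -0.17 (SE 0.11, edgeR adjusted p = 0.164), and it passed the test without day 2 library 3 (-0.18, adjusted p = 0.00842) and with days 0 and 3 fitted alone (-0.16, adjusted p = 0.031). *Slc38a2* took 13.4% to 15.6% of the summed TPM of the 10 genes on day 0 and 34.3% to 36.3% on day 1. The sum of all 10 was between 885 and 934 TPM on day 0 and between 1205 and 1287 TPM on day 1, and without *Slc38a2* the sums were 747 to 809 TPM and 768 to 846 TPM, which overlapped. *Slc38a1* instead rose in the steps to day 1 and to day 3. It was at 43.4, 46.9 and 46.3 TPM on day 0 and 54.1, 52.8 and 56.1 TPM on day 1. It was at 52.2, 58.2 and 57.00 TPM on day 2 and 66.2, 68.5 and 73.99 TPM on day 3. Only the libraries of days 1 and 2 overlapped. The rises were 0.32 (SE 0.06, edgeR adjusted p = 7.3e-05) and 0.28 (SE 0.06, edgeR adjusted p = 0.00126). The step between them, -0.07 (SE 0.06, edgeR adjusted p = 0.282), did not pass. Its net rise was 0.53 (SE 0.06, edgeR adjusted p = 9.66e-08).

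The genes of the Asct exchangers moved in opposite directions over the 3 days. *Slc1a4* was at 9.09, 8.65 and 9.51 TPM on day 0 and 7.28, 7.46 and 6.603 TPM on day 1, and the libraries of the days did not overlap. It reached 24.6, 24.2 and 25.1 TPM on day 2 and 34.4, 30.7 and 36.7 TPM on day 3. The early fall of 0.28 on the log2 scale (SE 0.09, edgeR adjusted p = 0.011) did not pass without day 1 library 3 (-0.22, adjusted p = 0.0648). The rise to day 2 was 1.67 (SE 0.08, edgeR adjusted p = 5.17e-12), a further rise to day 3 was 0.42 (SE 0.07, edgeR adjusted p = 0.000317), and the net rise was 1.82 (SE 0.08, edgeR adjusted p = 1.58e-13). *Slc1a5* was at 66.2, 62.9 and 56.6 TPM on day 0 and 34.6, 36.2 and 38.2 TPM on day 1. It stayed at 39.9, 38.9 and 40.6 TPM on day 2 and 41.2, 41.6 and 40.05 TPM on day 3. Day 0 stood above all later days. The fall to day 1 was 0.70 on the log2 scale (SE 0.07, edgeR adjusted p = 2.51e-08), and the later steps of 0.02 (SE 0.07, edgeR adjusted p = 0.819) and -0.00061 (SE 0.07, edgeR adjusted p = 0.996) did not pass. *Slc1a4* thus made up 12.1% to 14.4% of the summed TPM of the pair on day 0 and 42.5% to 47.8% on day 3.

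*Slc6a9*, the glycine carrier, fell on the first day and then rose above its day 0 level. It was at 5.63, 5.07 and 4.89 TPM on day 0 and 2.16, 2.45 and 2.29 TPM on day 1. It was at 14.5, 15.01 and 12.6 TPM on day 2 and 13.03, 13.03 and 13.1 TPM on day 3. All libraries of days 2 and 3 lay above those of day 0, and those of day 1 lay below. The fall was 1.10 on the log2 scale (SE 0.13, edgeR adjusted p = 7.98e-07), and the rise from day 1 to day 2, 2.50 (SE 0.12, edgeR adjusted p = 4.36e-12), was a 5.64-fold difference, the largest of the 10 genes in any daily step. The net rise was 1.25 (SE 0.11, edgeR adjusted p = 4.64e-09). Its counts were modest, from 51 on day 1 to 339 on day 2.

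**Figure D2:**
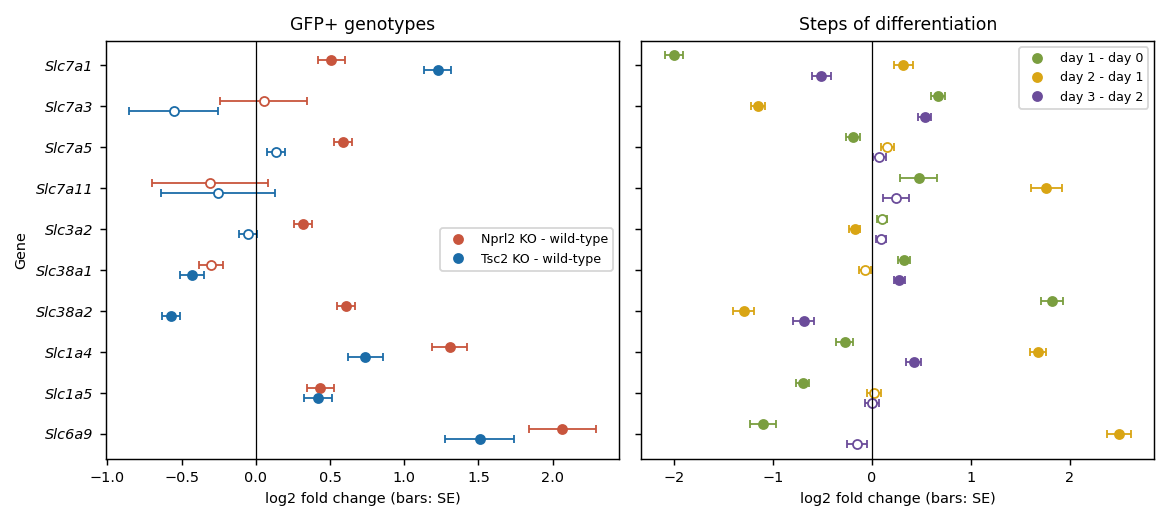
Log2 fold changes with their SE (x axis) of the 10 transporter genes (y axis), for the 2 KO genotypes against wild-type GFP+ cells on the left and for the 3 daily steps of differentiation on the right. Filled points passed edgeR's quasi-likelihood test at an adjusted p under 0.05 and open points did not. On the left, *Slc38a2* lies on opposite sides of 0 in the KOs, and on the right *Slc6a9* and *Slc1a4* move left on day 1 and right on day 2.

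In GFP+ cells without *Nprl2*, 7 transporter genes rose, none fell and 3 did not pass edgeR's test, whereas 2.78% of all genes tested were higher and 3.66% lower (6.43% together). With DESeq2 and with limma on log2(TPM + 1) none fell either, and 1 of the 10, *Slc38a1*, was lower at an unadjusted p under 0.05 in edgeR. The 7 were *Slc6a9*, *Slc1a4*, *Slc38a2*, *Slc7a5*, *Slc7a1*, *Slc1a5* and *Slc3a2*. Their log2 fold changes ran from 0.32 to 2.07, and the median of all 10 genes was 0.47 against 0.00 for all genes tested. In cells without *Tsc2*, 4 rose, 2 fell and 4 did not pass, against 14.9% of all genes higher and 14.2% lower (29.1% together), and the median of the 10 was 0.04. *Slc6a9*, *Slc7a1*, *Slc1a4* and *Slc1a5* rose in *Tsc2* KO, and *Slc38a2* and *Slc38a1* fell. In the direct comparison of the KOs, 1 gene (*Slc7a1*) was higher in *Tsc2* KO and 5 were lower, against 17.5% of all genes higher and 16.6% lower (34.2% together). These comparisons share libraries, so the values for each gene are given side by side.

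**Figure D3:**
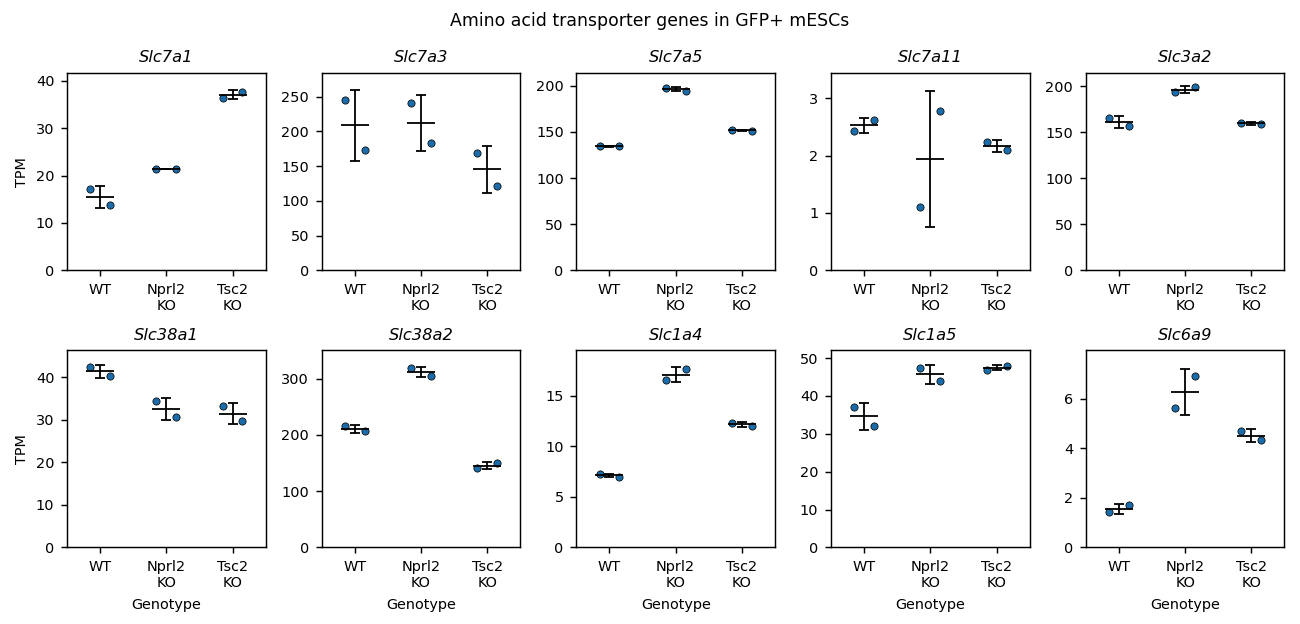
Levels (TPM, linear axes that start at 0 and differ between panels) of the 10 transporter genes in GFP+ cells of wild-type (WT), *Nprl2* KO and *Tsc2* KO, with 1 point per library, the mean as a line and the SD as bars (n = 2). *Slc1a4* and *Slc6a9* are higher in both KOs than in wild-type, *Slc7a1* is highest in *Tsc2* KO, and *Slc38a2* is highest in *Nprl2* KO and lowest in *Tsc2* KO.

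*Slc38a2* was the member that rose in one KO and fell in the other. It was at 216 and 206 TPM in wild-type, 319 and 306 TPM in *Nprl2* KO and 141 and 149.5 TPM in *Tsc2* KO. The 3 genotypes did not overlap. The log2 fold change was 0.61 (SE 0.06, edgeR adjusted p = 0.000142) in *Nprl2* KO and -0.57 (SE 0.06, edgeR adjusted p = 3.31e-05) in *Tsc2* KO. Set against each other, the KOs differed by -1.18 (SE 0.06, edgeR adjusted p = 1.04e-07), with *Tsc2* KO the lower. Its neighbour *Slc38a1* was at 42.5 and 40.3 TPM in wild-type, 34.3 and 30.8 TPM in *Nprl2* KO and 33.2 and 29.7 TPM in *Tsc2* KO, with wild-type above both KOs. It fell in *Tsc2* KO, -0.43 (SE 0.08, edgeR adjusted p = 0.00223). In *Nprl2* KO its log2 fold change was -0.30 (SE 0.08, edgeR adjusted p = 0.0518). It was -0.30 without *Tsc2* KO library 1 and -0.31 without library 2. It passed with the replicate block (edgeR adjusted p = 0.00241) and with no filter on low counts (-0.30, edgeR adjusted p = 0.00623).

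*Slc7a1* rose in both KOs and most in *Tsc2* KO. It was at 17.1 and 13.9 TPM in wild-type, 21.3 and 21.4 TPM in *Nprl2* KO and 36.4 and 37.8 TPM in *Tsc2* KO. No 2 genotypes overlapped. The log2 fold change was 0.51 (SE 0.09, edgeR adjusted p = 0.0067) in *Nprl2* KO and 1.23 (SE 0.09, edgeR adjusted p = 2.63e-06) in *Tsc2* KO, and *Tsc2* KO was the higher KO by 0.72 (SE 0.09, edgeR adjusted p = 6.56e-05). With limma on log2(TPM + 1) the rise in *Nprl2* KO did not pass (0.44, adjusted p = 0.0639). *Slc7a3*, its paralogue, was at 245 and 172 TPM in wild-type, 241 and 183 TPM in *Nprl2* KO and 169.5 and 122 TPM in *Tsc2* KO. Library 1 was above library 2 in each genotype. Wild-type and *Nprl2* KO overlapped, and both *Tsc2* KO libraries lay below them. Neither 0.05 (SE 0.29, edgeR adjusted p = 0.952) in *Nprl2* KO nor -0.55 (SE 0.30, edgeR adjusted p = 0.267) in *Tsc2* KO passed, and with no filter on low counts the latter did (adjusted p = 8.15e-12). With the replicate number as a block, which takes out the gap between libraries 1 and 2, the fall in *Tsc2* KO passed (-0.55, adjusted p = 5.91e-07), and so did the difference between the KOs (-0.62, adjusted p = 9.75e-08), whereas the labels do not say what the numbers mark. *Slc7a1* made up 6.52% to 7.45% of the summed TPM of this pair in wild-type and 17.7% to 23.7% in *Tsc2* KO.

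The transcripts of both chains of the leucine exchanger rose in *Nprl2* KO, and neither passed in *Tsc2* KO. *Slc7a5* was at 135 and 134 TPM in wild-type, 198 and 195 TPM in *Nprl2* KO and 152 and 151 TPM in *Tsc2* KO. The libraries of each genotype lay close together and apart from the others. Its log2 fold change was 0.59 (SE 0.06, edgeR adjusted p = 0.000169) in *Nprl2* KO and 0.14 (SE 0.06, edgeR adjusted p = 0.105) in *Tsc2* KO, and the KOs differed by -0.45 (SE 0.06, edgeR adjusted p = 0.000121). *Slc3a2* was at 166 and 157 TPM in wild-type, 194 and 199 TPM in *Nprl2* KO and 160.4 and 159 TPM in *Tsc2* KO. *Nprl2* KO stood above the others, while wild-type and *Tsc2* KO overlapped. The log2 fold change was 0.32 (SE 0.06, edgeR adjusted p = 0.00974) in *Nprl2* KO and -0.05 (SE 0.06, edgeR adjusted p = 0.567) in *Tsc2* KO, with -0.37 (SE 0.06, edgeR adjusted p = 0.000604) between the KOs. The rise in *Nprl2* KO was lost without wild-type library 1 or 2 or *Nprl2* KO library 2 (adjusted p = 0.0513, 0.0771 and 0.0642). *Slc7a11* did not follow its heavy chain. It was at 2.44 and 2.62 TPM in wild-type, 1.11 and 2.78 TPM in *Nprl2* KO and 2.24 and 2.09 TPM in *Tsc2* KO. The *Nprl2* KO libraries lay on both sides of the others, and the log2 fold change there was -0.31 (SE 0.39, edgeR adjusted p = 0.718). It was 0.17 (adjusted p = 0.691) without *Nprl2* KO library 1 and -1.14 (adjusted p = 0.0278) without library 2, so that a single library decided its direction. In *Tsc2* KO it was -0.26 (SE 0.39, edgeR adjusted p = 0.671). Between the KOs it was 0.05 (SE 0.39, edgeR adjusted p = 0.932), which became 0.88 (adjusted p = 0.0153) without *Nprl2* KO library 2 and -0.43 (adjusted p = 0.111) without library 1.

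The genes of the Asct exchangers and of the glycine carrier rose in both KOs. *Slc1a4* was at 7.23 and 7.003 TPM in wild-type, 16.6 and 17.6 TPM in *Nprl2* KO and 12.3 and 11.99 TPM in *Tsc2* KO. The genotypes were clear of each other, with *Tsc2* KO between the others. The log2 fold change was 1.31 (SE 0.12, edgeR adjusted p = 6.71e-05) in *Nprl2* KO and 0.74 (SE 0.12, edgeR adjusted p = 0.000605) in *Tsc2* KO, and the KOs differed by -0.57 (SE 0.11, edgeR adjusted p = 0.00137). *Slc1a5* was at 37.1 and 32.1 TPM in wild-type, 47.5 and 43.96 TPM in *Nprl2* KO and 46.9 and 48.00 TPM in *Tsc2* KO, with the KOs above wild-type and overlapping each other. Its log2 fold change was 0.44 (SE 0.09, edgeR adjusted p = 0.0167) in *Nprl2* KO and 0.42 (SE 0.09, edgeR adjusted p = 0.00528) in *Tsc2* KO, and -0.02 (SE 0.09, edgeR adjusted p = 0.905) between the KOs. The rise in *Nprl2* KO was lost without wild-type library 2, *Nprl2* KO library 1 or *Nprl2* KO library 2 (adjusted p = 0.108, 0.109 and 0.0512) and with limma on log2(TPM + 1) (0.39, adjusted p = 0.0528). *Slc6a9* was at 1.42 and 1.696 TPM in wild-type, 5.62 and 6.93 TPM in *Nprl2* KO and 4.69 and 4.33 TPM in *Tsc2* KO. All KO libraries lay above wild-type, where the counts were 25 and 27. The log2 fold change was 2.07 (SE 0.23, edgeR adjusted p = 0.000267) in *Nprl2* KO and 1.51 (SE 0.23, edgeR adjusted p = 0.000483) in *Tsc2* KO, the largest of the 10 genes in each comparison. The difference between the KOs, -0.56 (SE 0.19, edgeR adjusted p = 0.036), did not pass with DESeq2 (adjusted p = 0.223), with limma on log2(TPM + 1) (adjusted p = 0.106), or without *Nprl2* KO library 2, *Tsc2* KO library 1 or *Tsc2* KO library 2 (adjusted p = 0.257, 0.0803 and 0.191).

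Of the 10 genes, 4 were listed with more than 1 transcript. For *Slc7a3* the 2277-base transcript held 86.8% to 93.9% of the TPM in all 18 libraries, and for *Slc3a2* the 2572-base transcript held 94.9% to 98.2%. The 3 *Slc38a1* transcripts kept one order of mean share in every group, led by the 7059-base form with 42.0% to 62.6%. *Slc7a1* was split differently in the experiments. Its 7079-base transcript held 39.99% to 80.8% in the time course, 12.3% and 34.0% in wild-type GFP+ cells, 0.860% and 20.6% in cells without *Nprl2*, and 2.11% and 5.34% in those without *Tsc2*, with the rest assigned to a 7195-base transcript. These shares are kallisto's division of reads between overlapping transcripts, the experiments may have been prepared differently, and no test was run on them.

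A list of 24 amino acid response genes, the Atf4 arm without any of the 10 transporters, was set beside them. In *Nprl2* KO 18 rose, none fell and 6 did not pass edgeR's test, and the 24 had a median of 0.76 on the log2 scale, with 2.78% of all genes having risen and 3.66% having fallen. In *Tsc2* KO 17 rose, none fell and 7 did not pass, and the median was 0.65, with 14.9% of all genes having risen and 14.2% having fallen. In neither KO was any of the 24 lower at an unadjusted p under 0.05 in edgeR, or called lower by DESeq2 or limma. Examples are *Nupr1*, a stress-induced chromatin protein, with a log2 fold change of 2.64 (SE 0.22, edgeR adjusted p = 5.63e-05) in *Nprl2* KO and 2.51 (SE 0.22, edgeR adjusted p = 1e-05) in *Tsc2* KO. *Chac1*, which degrades glutathione, had 2.36 (SE 0.27, edgeR adjusted p = 0.000378) and 1.45 (SE 0.29, edgeR adjusted p = 0.00261). The transporters and the list thus both held more risers than fallers in *Nprl2* KO, while in *Tsc2* KO the list held no fallers and the transporters held *Slc38a1* and *Slc38a2*. From day 0 to day 1, none of the 24 rose by edgeR, DESeq2 or limma (0 at an unadjusted p under 0.05 in edgeR), 19 fell and 5 did not pass, with a median of -1.03, against 30.1% of all genes higher and 30.8% lower, and on the same day *Slc38a2* rose by 1.81. From day 1 to day 2, 18 rose and 3 fell (median 1.08), against 32.5% of all genes higher and 29.6% lower, and *Slc38a2* fell. *Slc6a9* and *Slc1a4* fell on the first day and rose on the second. Over the 3 days 9 of the 24 rose and 12 fell, with a median of -0.20, against 35% and 35.9% of all genes. *Ddit4*, an inhibitor of mTORC1, rose by 2.48 (SE 0.33, edgeR adjusted p = 0.000127), *Vldlr*, a lipoprotein receptor, by 1.78 (SE 0.22, edgeR adjusted p = 2.53e-06) and *Stc2*, a secreted glycoprotein, by 1.22 (SE 0.34, edgeR adjusted p = 0.00838). *Nupr1* fell by 3.13 on the log2 scale (SE 0.23, edgeR adjusted p = 3.72e-09). *Asns*, the asparagine synthetase, fell by 1.43 on the log2 scale (SE 0.07, edgeR adjusted p = 2.32e-12). *Cth*, which makes cysteine, fell by 1.502 on the log2 scale (SE 0.08, edgeR adjusted p = 4.69e-12).

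**Figure D4:**
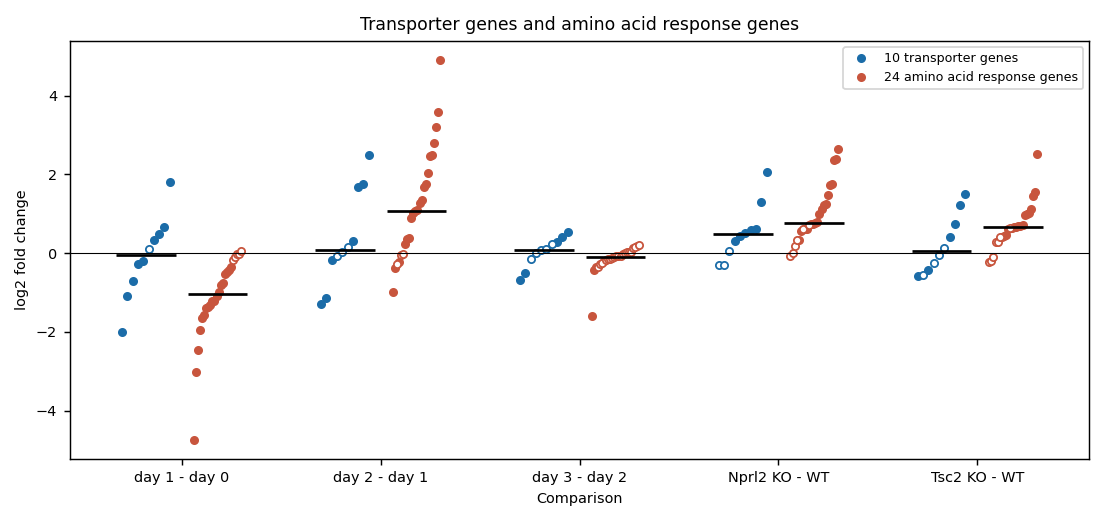
Log2 fold changes (y axis) of the 10 transporter genes (blue) and of 24 amino acid response genes (red) in 5 comparisons (x axis), with 1 point per gene in order of its value and the median as a line. Filled points passed edgeR's test at an adjusted p under 0.05. From day 0 to day 1 no response gene passed the test as higher, and the highest transporter, *Slc38a2*, rose by 1.81.

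Other transporters of the plasma membrane were read from a list of 34 genes, of which 21 passed the filter on low counts in the time course and 19 in GFP+ cells. From day 0 to day 1, 7 of the 21 rose and 7 fell, against 30.1% of all genes higher and 30.8% lower. The mean of *Slc7a7* was 24.3 TPM on day 0 and 158 TPM on day 1, and that of *Slc38a4* was 49.6 and 53.4 TPM. Over the 3 days 13 rose, 5 fell and 3 did not pass, while 35% of all genes were higher and 35.9% lower (70.9% together). *Slc7a8* (Lat2), another light chain of *Slc3a2*, went from 0.573 ± 0.0774 TPM on day 0 to 9.03 ± 0.975 TPM on day 3 (SD, n = 3), which is a difference of 3.87 on the log2 scale (SE 0.19, edgeR adjusted p = 1.26e-12). *Slc16a10* (Tat1), a carrier of aromatic amino acids, rose by 1.97 (SE 0.15, edgeR adjusted p = 5.87e-10), and *Slc6a6*, the taurine carrier, fell by 1.12 on the log2 scale (SE 0.06, edgeR adjusted p = 9.75e-12). *Slc1a1* (Eaac1), a carrier of glutamate and aspartate, went from 132, 140 and 119 counts on day 0 to 5, 3 and 7 counts on day 3. *Slc6a13* had 2, 1 and 1 counts on day 0 and 40, 31 and 26 on day 3, and *Slc6a7* had 40, 50 and 66 on day 0 and 0, 2 and 1 on day 3, so no fold is given for either. In *Nprl2* KO 4 of the 19 rose and none fell by edgeR, DESeq2 or limma (1 at an unadjusted p under 0.05), against 2.78% of all genes higher and 3.66% lower, among them *Slc7a8* with 1.19 (SE 0.30, edgeR adjusted p = 0.0346) and *Slc43a1* (Lat3) with 0.91 (SE 0.18, edgeR adjusted p = 0.0119), and *Slc7a9* with 13 and 15 counts against 3 and 0 in wild-type. In *Tsc2* KO 7 rose and 3 fell, with 14.9% of all genes having risen and 14.2% having fallen. *Slc1a1* rose by 2.37 (SE 0.37, edgeR adjusted p = 0.00114) and *Slc43a1* fell by 1.65 on the log2 scale (SE 0.22, edgeR adjusted p = 0.000184).

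The lysosomal transporters, which move amino acids between the lysosome and the cytosol, were read from a list of 8 genes, of which 7 were tested. In *Nprl2* KO none was called by edgeR, DESeq2 or limma, where only 6.43% of all genes were called. At an unadjusted p under 0.05 in edgeR, 3 were lower. In *Tsc2* KO 3 rose and none fell by any of these tools (0 lower at an unadjusted p under 0.05), against 14.9% of all genes higher and 14.2% lower (29.1% together). Those that rose included *Slc36a1* (Pat1), an exporter of small amino acids, with 0.70 (SE 0.13, edgeR adjusted p = 0.00205), and *Ctns*, the cystine exporter, with 0.48 (SE 0.13, edgeR adjusted p = 0.0194). From day 0 to day 1 both fell, *Slc36a1* by 1.58 on the log2 scale (SE 0.12, edgeR adjusted p = 8.83e-10) and *Ctns* by 0.80 on the log2 scale (SE 0.09, edgeR adjusted p = 6e-07). *Slc38a9*, the arginine sensor of mTORC1 at the lysosome, had a log2 fold change of -0.14 (SE 0.15, edgeR adjusted p = 0.652) in *Nprl2* KO and 0.04 (SE 0.15, edgeR adjusted p = 0.851) in *Tsc2* KO.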

How the data were processed

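The authors deposited, for each library and RefSeq transcript, estimated counts and TPM from kallisto 0.42.1, not normalized between libraries, and a TPM table per gene. The build mm10 is named in the submitters' processing notes. Their DESeq2 comparisons, which hold fold changes and p values, were not used. Of 34079 transcripts, 33713 were matched to genes by the RefSeq table of GRCm38.p6 and 192 by GENCODE, and 174 were left out. Counts were summed for 24296 genes and rounded. All 180 values of the 10 genes in the deposited TPM table matched these sums within 0.1%. Reads shared by near-identical copies were divided by kallisto.

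Counts were tested with edgeR 4.0.16 in R 4.3.3 (TMM, filterByExpr, robust quasi-likelihood F-test, Benjamini-Hochberg adjustment over all genes tested, threshold 0.05), in a fit of the 6 GFP+ libraries (13725 genes) and a fit of the 12 time-course libraries (14382 genes). The SE is the absolute log2 fold change divided by the square root of F. The fits were tested on simulated data. Libraries of a group differed by more than sampling noise (chi-square per gene of 1.82 to 9.06, where 1 is noise alone). Alternatives were DESeq2 1.42.0, upper-quartile normalization, no filter, the replicate number as a block, limma 3.58.1 on log2(TPM + 1) and log2(TPM + 0.1), the compared groups alone, and leaving out each library. The genes named are all 10 members, and from the other lists up to 3 called genes with the largest change in each direction and some chosen after their values were seen. The members and the lists were chosen with earlier results of these data known.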

Additional observations from a re-analysis of the deposited data

How the results depend on the processing

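Of 1220 recomputed log2 fold changes of the 10 genes, 1136 kept their direction and their side of the threshold, 35 (8 results) lost the call, 22 (8 results) gained it and 27 (9 results) changed sign, all of the last not called as reported. The count of all genes called in *Nprl2* KO against wild-type was 883, and it was 1667 with no filter on low counts, 2072 with the replicate block and 271 with limma on log2(TPM + 1) without a filter, where 4 transporter genes were called instead of 7. In GFP+ cells libraries with the same replicate number deviated together in all 3 pairs of genotypes (correlations 0.11 to 0.20, with 2 libraries a group), although the labels do not say what a number marks, and with the block *Slc38a1* in *Nprl2* KO (adjusted p = 0.00241), *Slc7a3* in *Tsc2* KO (5.91e-07) and *Slc7a3* between the KOs (9.75e-08) gained a call. In the time course the correlations were -0.14 to 0.16 for the same number and -0.24 to 0.27 for different numbers. Whether the number marked a shared deviation there was not tested. With the block *Slc7a5* from day 1 to day 2 gained a call (edgeR adjusted p = 0.0419). The block changed no other call of the 10 genes.

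Leaving out each library gave 339 to 783 calls among all genes in *Nprl2* KO against wild-type (339 without *Nprl2* KO library 2, 483 and 503 without wild-type library 1 and 2, 548 without *Nprl2* KO library 1), 2225 to 3974 in *Tsc2* KO against wild-type (2225 without *Tsc2* KO library 2, 2661 without wild-type library 1), 2974 to 4791 between the KOs (2974 without *Tsc2* KO library 2) and 2969 to 5055 from day 2 to day 3 (2969 without day 2 library 2). The transporter genes called were then 5 to 8, 6 in all, 5 to 6 and 5 to 6. A group left with 1 library is assumed to vary like the others. The log2 fold changes that changed sign without a library ran from -0.17 to 0.31 for *Slc7a3* in *Nprl2* KO, -1.14 to 0.17 for *Slc7a11* in *Nprl2* KO, -0.43 to 0.88 for *Slc7a11* and -0.071 to 0.039 for *Slc1a5* between the KOs, -0.012 to 0.042 for *Slc1a5* from day 1 to day 2 and -0.012 to 0.033 from day 2 to day 3, and, from day 0 to day 3, -0.011 to 0.036 for *Slc3a2* and -0.039 to 0.098 for *Slc7a5*. Other sign changes were *Slc1a5* between the KOs (0.055, 0.056 and 0.055 with limma at log2(TPM + 1), at log2(TPM + 0.1) and without a filter), *Slc1a5* from day 1 to day 2 (-0.0041 with DESeq2), *Slc1a5* from day 2 to day 3 (0.019 with DESeq2, 0.016 with no filter on low counts, 0.041 with each limma fit) and *Slc38a1* from day 1 to day 2 (0.0070 with upper-quartile normalization, 0.036, 0.037 and 0.036 with the limma fits). The cause was not tested. With limma on log2(TPM + 1) the share of calls that were higher went from 51.3% to 61.7% between the KOs and from 52.4% to 63.8% from day 1 to day 2, and with log2(TPM + 0.1) the median of all genes from day 1 to day 2 moved by 0.11. Counts as low as 25 for *Slc6a9* in wild-type GFP+ cells and 42 for *Slc7a11* on day 0 limit what could be detected for these genes.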
